A study of Caenorhabditis elegans with 2 samples.

Results

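The ranked regions described here lay in the piRNA clusters of Caenorhabditis elegans chromosome IV, where nearly all annotated piRNA genes of this worm are found. They came from chromatin immunoprecipitation with sequencing (ChIP-seq) of a tagged ETS-5 protein, and were chosen by position alone. A region was a member when its summit, the base of highest enrichment, lay at 4500000 to 7000000 (the left cluster) or at 13500000 to 17200000 (the right cluster) of chromosome IV in build ce11. Of 126002 regions in the ranked list behind the authors' main thresholded list, 5311 met this rule, 2561 in the left and 2750 in the right cluster. The 14540 regions of the rest of chromosome IV served as the comparison. The windows held 14204 of the 14714 piRNA genes annotated on chromosome IV and of 15363 in the genome, 2816 on the left and 11388 on the right, which matches the name given to the windows.

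Chromatin was made from whole starved larvae of the stage L1 from the strain OP809, which the labels give as 6 hours old and starved after bleaching. This strain carries the insertion wgIs809, a fosmid transgene of ets-5 with a TY1, EGFP and 3xFLAG tag, together with unc-119(+) as rescue in an unc-119(tm4063) background. The tagged copy was present besides the worm's own ets-5 locus, the precipitation used an antibody to GFP, and the 2 biological replicates formed 1 group with no untagged or mutant worms in the lists used here. ETS-5 is a transcription factor of the ETS family, whose members bind DNA around a GGAA core, and it is best known for its role in the BAG sensory neurons. Because whole animals were used, the cells from which a region's signal came cannot be told apart.

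The piRNAs of this worm, called 21U-RNAs, are small RNAs that begin with uridine and guide the Piwi protein PRG-1 to foreign and transposon-like transcripts in the germline. Most are made from their own small transcription units, many with a short upstream motif around the word CTGTTTCA or its core GTTTC, and a complex containing PRDE-1, SNPC-4, TOFU-4 and TOFU-5 gathers over the clusters. The genes sit densely between and inside protein-coding genes, in sequence rich in A and T. The germline of a newly hatched larva consists of the primordial germ cells alone, so its share of the chromatin of a whole larva is small.

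The annotation and genome sequence (RefSeq, WBcel235, the assembly also called ce11) showed this layout. Of the 14204 piRNA genes in the clusters, 96.2% began with T in the DNA sequence and 62.9% were intergenic, while 34.1% lay in introns. The word CTGTTTCA stood within 60 bp upstream on the gene's strand in 34.8% of them, with a median of 46 bp from the word's first base to the 5′ end, and the core GTTTC in 75.8%. To show what a region at a piRNA gene overlay, the following are piRNA genes at the strongest such regions, on the gene's strand, 5′ to 3′, with 60 bases upstream. Capitals mark the copy of the word, or of its core where the full word was missing, nearest the 5′ end and, at the end of the line, the 21 bases of the piRNA itself. The left cluster's 21ur-14954 (IV:6285016-6285096, minus strand) and 21ur-2585 (IV:5282867-5282947, plus strand) came first and second by signal there, and 21ur-12668 (IV:5762684-5762764, minus strand) lay at the strongest left region whose summit window held the full word.
21ur-14954: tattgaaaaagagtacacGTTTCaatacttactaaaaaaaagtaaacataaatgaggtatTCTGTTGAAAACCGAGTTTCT
21ur-2585: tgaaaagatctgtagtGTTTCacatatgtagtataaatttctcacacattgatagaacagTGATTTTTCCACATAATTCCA
21ur-12668: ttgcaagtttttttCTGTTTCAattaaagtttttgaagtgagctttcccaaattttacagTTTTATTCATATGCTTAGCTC

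In the right cluster, 21ur-2046 (IV:13600792-13600872, plus strand) lay at the strongest region, followed by 21ur-1614 (IV:16356362-16356442, plus strand) and 21ur-2811 (IV:14028400-14028480, minus strand). The gene 21ur-2046 had neither the word nor its core upstream, so capitals mark its piRNA alone, and 21ur-2234 (IV:16723288-16723368, minus strand) lay at the strongest right region whose window held the full word.
21ur-2046: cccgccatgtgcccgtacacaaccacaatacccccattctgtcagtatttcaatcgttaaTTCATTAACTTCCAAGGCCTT
21ur-1614: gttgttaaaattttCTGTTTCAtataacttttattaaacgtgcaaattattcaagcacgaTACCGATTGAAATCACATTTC
21ur-2811: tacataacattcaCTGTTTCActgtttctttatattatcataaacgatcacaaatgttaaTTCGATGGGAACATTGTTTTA
21ur-2234: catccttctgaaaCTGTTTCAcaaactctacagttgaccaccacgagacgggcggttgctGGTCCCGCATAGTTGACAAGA

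The strongest regions that passed the authors' threshold lay elsewhere. The following are the 201 bases centred on the summits near Y17G9B.5 (IV:4749963-4750163), near K08F11.1 (IV:4725514-4725714) and inside a coding exon of Y57G11C.5 (IV:14764134-14764334), all on the plus strand, with each GGAA or its reverse complement TTCC in capitals. The last was the passing region closest to a piRNA gene.
Y17G9B.5: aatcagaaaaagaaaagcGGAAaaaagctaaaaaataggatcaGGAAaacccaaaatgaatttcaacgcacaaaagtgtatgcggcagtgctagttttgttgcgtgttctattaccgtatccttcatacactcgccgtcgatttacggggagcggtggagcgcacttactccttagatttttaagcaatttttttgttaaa
K08F11.1: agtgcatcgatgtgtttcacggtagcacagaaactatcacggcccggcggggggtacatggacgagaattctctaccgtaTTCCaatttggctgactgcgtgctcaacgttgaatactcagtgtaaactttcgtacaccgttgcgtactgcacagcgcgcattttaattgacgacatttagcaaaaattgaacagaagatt
Y57G11C.5: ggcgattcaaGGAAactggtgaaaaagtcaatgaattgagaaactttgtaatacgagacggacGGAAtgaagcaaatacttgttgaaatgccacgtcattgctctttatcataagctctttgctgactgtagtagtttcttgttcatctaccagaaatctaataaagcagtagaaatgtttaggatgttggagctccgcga

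None of these 3 windows held CTGTTTCA on either strand. Their GC content was 38.8%, 46.3% and 38.8%. Of the 7 printed piRNA stretches, 5 had between 27.2% and 29.6%, while 21ur-2046 had 45.7% and 21ur-2234 had 50.6%, so the stretches overlapped the passing windows in GC content.

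Few cluster regions passed. The ranked lists hold relaxed candidates, and the authors' thresholded lists hold the subset whose rank recurred by the irreproducible discovery rate (IDR), the expected share of regions that do not recur. Among all ranked regions behind the main list, 0.198% passed, and in the clusters 10 of 5311 did, which is 0.188% (exact 95% binomial interval 0.0903% to 0.346%, for counting error only). In the rest of chromosome IV, 23 of 14540 passed, or 0.158%. The cluster share was thus 1.19 times that of the rest of the chromosome and close to that of all regions, and the interval covered both. The left cluster held 8 of the 10 (0.312%) and the right cluster 2 (0.0727%), with intervals of 0.135% to 0.615% and 0.00881% to 0.262% that overlapped. In the conservative list, where 0.143% of all ranked regions passed, 9 cluster regions did. Of these, 6 also passed in the main list. The other 3 were IV:4720551-4720860, 4156 bp from the start site of K08F11.1, and the overlapping IV:15470656-15470965 and IV:15470855-15471164 near ntl-11. The 4 that passed in the main list but not in the conservative one were IV:4727883-4728192, IV:4728124-4728433, IV:15524372-15524681 and IV:6323658-6323967.

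Both replicates' own thresholded lists were short. They held 0.0194% of the ranked regions of replicate 1 and 0.0281% of those of replicate 2, with 3 cluster regions in each. In replicate 1 these were regions near Y17G9B.5, near K08F11.1 and at IV:13922325-13922628, 9448 bp from the start site of Y37A1A.2. The last had a signal of 76.9 in replicate 1 and no overlapping region in the main ranked list, so it is no member. In replicate 2 the 3 regions lay near Y17G9B.5 and K08F11.1 alone.

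The strongest passing region, IV:4749908-4750217, stood 177 bp from the start site of Y17G9B.5 (WBGene00021202) and 285 bp from that of rpl-20, a gene for a ribosomal protein of the large subunit. Its signal, the value given by the authors' caller with no stated scale, was 176.5 in the main list, and the overlapping regions had 78.6 (replicate 1) and 94.0 (replicate 2). The next, IV:4725459-4725768, stood 468 bp from the start of K08F11.1 (WBGene00019541) and had signals of 171.9, 94.9 and 76.4 in the same order. These 2 regions passed in every one of the 4 lists, and each replicate placed them above the 99.9th percentile of its own list. The nearest piRNA genes were 17641 bp and 4094 bp away.

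A neighbouring pair of overlapping regions lay 2892 bp and 3133 bp from the start of K08F11.1. The region IV:4727883-4728192 had signals of 93.4 in the main list, 27.1 (replicate 1) and 66.5 (replicate 2), which were the 89.8th and the 99.96th percentile of the replicates' lists. The other, IV:4728124-4728433, had a signal of only 5.96 in the main list, at its 6.77th percentile, although it overlapped regions of signal 32.1 and 66.5 in the replicates. It shared the replicate 2 region with its neighbour and passed by IDR rather than by signal, and it was the only 1 of the 10 below the 99th percentile of the main list. With the regions near K08F11.1 and Y17G9B.5, this pair placed 4 of the 10 passing members in a stretch of 24759 bp (IV:4725459-4750217). That stretch held 40 ranked regions in all and 1 piRNA gene, and the median percentile of its regions that did not pass was 45.6.

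The other 6 passing regions had main signals between 72.7 and 90.03. The region IV:6767284-6767593 was intergenic, 3394 bp from the start of anat-1 and 437 bp from 21ur-15238, with signals of 90.03, 38.7 and 51.6 in the main list, replicate 1 and replicate 2. The region IV:14764079-14764388 in a coding exon of Y57G11C.5 lay 204 bp from 21ur-1572, with signals of 79.9, 38.3 and 51.3. These were the only passing members within 500 bp of a piRNA gene, and 5 of the 14204 cluster piRNA genes lay that close to a passing summit.

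The remaining passing regions lay more than 1000 bp from any piRNA gene. The region IV:6441909-6442218, 163 bp from the start of Y73B6BL.31 and in its intron, had signals of 77.7, 41.5 and 37.2. The region IV:5540055-5540364 lay in a coding exon of drp-1, which encodes a dynamin-related protein of mitochondrial fission, and had signals of 77.6, 49.3 and 34.9. Both stood above the 98th percentile of each replicate's list. The region IV:15524372-15524681, 224 bp from the start of ari-1.4, had signals of 75.04, 31.2 and 42.7, and IV:6323658-6323967, 361 bp from the start of sqd-1, had 72.7, 29.5 and 47.4. In these the percentile was higher in replicate 2, at 99.7 against 95.1 and at 99.9 against 93.3, and replicate 2 gave the higher percentile in 8 of the 10 passing regions.

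**Figure D1:**
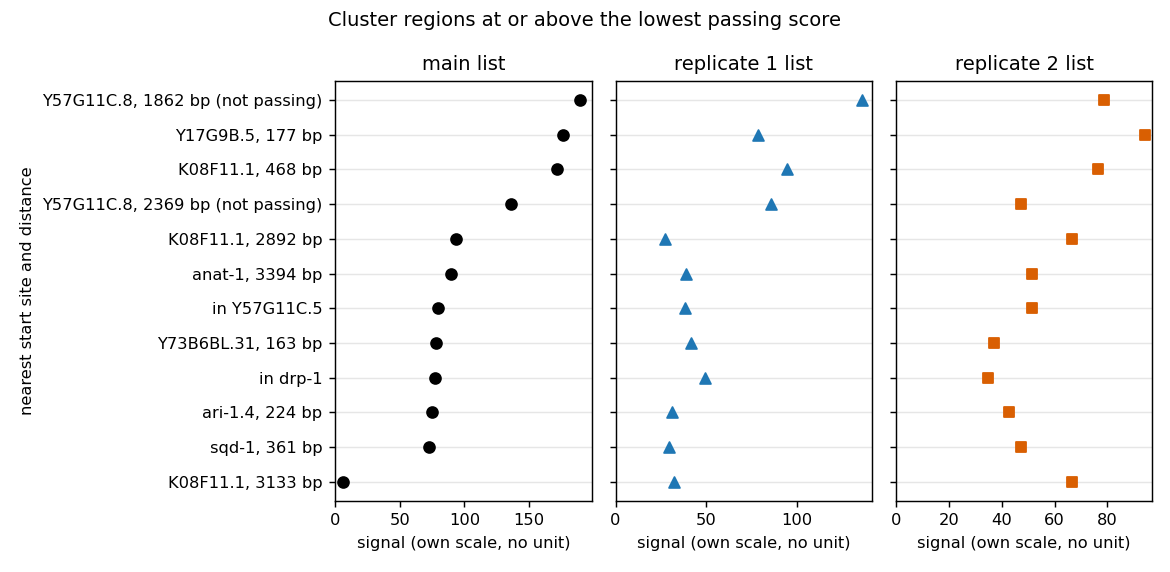
Signal (horizontal axes, the authors' value with no stated unit) of the 10 passing cluster regions and of 2 others at the passing score, in the main list (left panel) and, by the overlapping region of highest signal, in replicate 1 (middle) and replicate 2 (right). Rows are named by the nearest protein-coding start site and its distance, or by the gene whose coding exon holds the summit; each panel has its own scale, and in the main list the lowest row stands apart at 5.96.

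Of the cluster regions at or above the lowest passing score of 830, 2 were absent from the thresholded list. They lay next to each other in the right cluster, at IV:14779820-14780129 and IV:14779313-14779622, 1862 bp and 2369 bp from the start of Y57G11C.8. The former was the strongest of all 5311 members, with signals of 189.4 in the main list, 136.0 (replicate 1) and 78.7 (replicate 2), and the latter had 135.8, 85.7 and 47.2. Both scored 1000, the highest score, in the main and the conservative ranked lists and passed in none of the lists. Among all ranked regions 50 of the 300 at or above the lowest passing score were absent in the same way, for a reason the sources used here do not state. With them counted, the cluster share was 0.966 times that of the rest of chromosome IV.

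Across all members the signal was like that of the rest of the chromosome. The median signal was 23.6 in the clusters, 23.8 in the left and 23.3 in the right, against 23.8 in the rest of chromosome IV. Placed by percentile within the list, the cluster median was 50.05, with 50.5 on the left and 49.3 on the right, and 50.7 for the rest of chromosome IV. In replicate 1 the corresponding values were 49.4 for the clusters and 50.6 for the rest, and in replicate 2 they were 48.6 and 50.9. The clusters were below the rest of the chromosome in each of the 3 lists, by 0.652, 1.12 and 2.26 points. The 2 replicates' own cluster medians differed by 0.803 points, which does not measure the spread of these differences. Members are parts of the same 2 libraries and many overlap, forming 4345 stacks, so they are not replicates and no test over them was made.

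What differed more was the number of regions. The clusters held 857 regions per Mb, 1024 on the left and 743 on the right, against 1287 in the rest of chromosome IV. Replicate 1 had 738 against 1096, and replicate 2 had 726 against 954. Regions covered 25.2% of the cluster sequence and 37.7% of the rest. The clusters also held fewer protein-coding genes, 152 per Mb against 207, and were lower in GC, 33.0% against 35.5%, and the part of gene density in the number of regions was not tested.

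Within the clusters, regions were sparse at piRNA genes. Sequence within 100 bp of a piRNA gene made up 31.9% of the clusters (18.4% on the left, 41.0% on the right), but 960 of the 5311 members, 18.1% (interval 17.0% to 19.1%), had their summit there. That was 486 summits per Mb near piRNA genes against 1030 elsewhere in the clusters. The left cluster had 694 against 1099 and the right cluster 423 against 966, so the contrast was seen in each. No measure of how uniquely reads map to these sequences was used here, and its part in the density was not tested. Of the piRNA genes, 10.1% had a summit within 100 bp, and the share was 10.01% among those with the upstream word and 10.1% among those without.

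Around the 5′ ends of piRNA genes the density was lowest in the 100 bp just upstream, where the promoter motif lies. There it was 0.551 times the cluster's mean on the left and 0.517 times on the right. Replicate 1 gave 0.594 and 0.472, and replicate 2 gave 0.583 and 0.599. From 300 bp outward the ratio was 0.728 to 0.912 on the left and 0.660 to 0.759 on the right in the main list, in bins that hold other piRNA genes of the same neighbourhood. GC content followed the same shape, with 26.8% on the left and 26.0% on the right in the bin of lowest density.

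**Figure D2:**
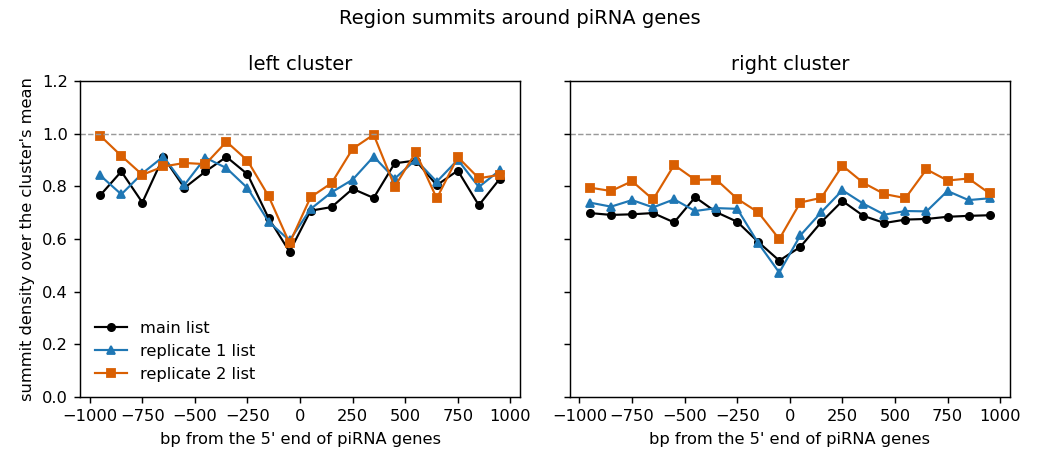
Density of region summits in bins of 100 bp (vertical axis, as a ratio to the mean of the same cluster) against distance from the 5′ ends of piRNA genes, negative values upstream, for the left cluster (left panel) and the right cluster (right panel) in the main list and each replicate. The lowest bin of every curve was the 100 bp upstream of the 5′ end, and a summit near several genes counts for each.

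Regions at piRNA genes also ranked lower. Their median signal was 20.4 against 24.3 for members not at one, and their median percentile 41.5 against 51.8, a difference of -10.3 points. On the left the medians were 37.6 and 52.0, on the right 43.0 and 51.5. Replicate 1 gave 41.8 and 51.4 over both clusters, with 38.8 and 50.7 on the left and 42.5 and 52.2 on the right. Replicate 2 gave 44.1 and 50.1, a smaller difference of -6.06 points. Its left cluster had 46.0 and 49.6, a difference of -3.67 points beside -14.5 in the main list, and its right cluster 43.8 and 50.4, so the size of the left difference rested on the list. The 80 regions at piRNA genes in the rest of chromosome IV had 39.9 in the main list, 42.7 in replicate 1 (74 regions) and 52.5 in replicate 2 (60 regions), so there the replicates did not match. None of the 960 members at a piRNA gene passed. By an approximate limit of 3 counts, not an exact interval, this allows a share of up to 0.312%, for counting error only. It so does not separate them from the background of 0.198%.

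The lower rank was seen up to 100 bp in the main list. By the gap between summit and piRNA gene, the median percentile in the main list was 46.5 for the 97 members inside a piRNA gene, 41.1 for the 475 at 1 to 50 bp and 41.3 for the 388 at 51 to 100 bp. It was 50.7 for the 862 at over 100 and up to 250 bp and 52.5 for the 2244 over 1000 bp away. Replicate 1 showed the same step, from 42.1 at 51 to 100 bp to 50.6 in the next class. Replicate 2 showed no clear step, with 45.8 at 51 to 100 bp, 47.0 up to 250 bp, 53.6 up to 500 bp, 47.4 up to 1000 bp and 51.5 beyond. Members with 1, 2 or 3 and more piRNA genes within 100 bp had medians of 40.9, 44.4 and 39.9, with no steady order.

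**Figure D3:**
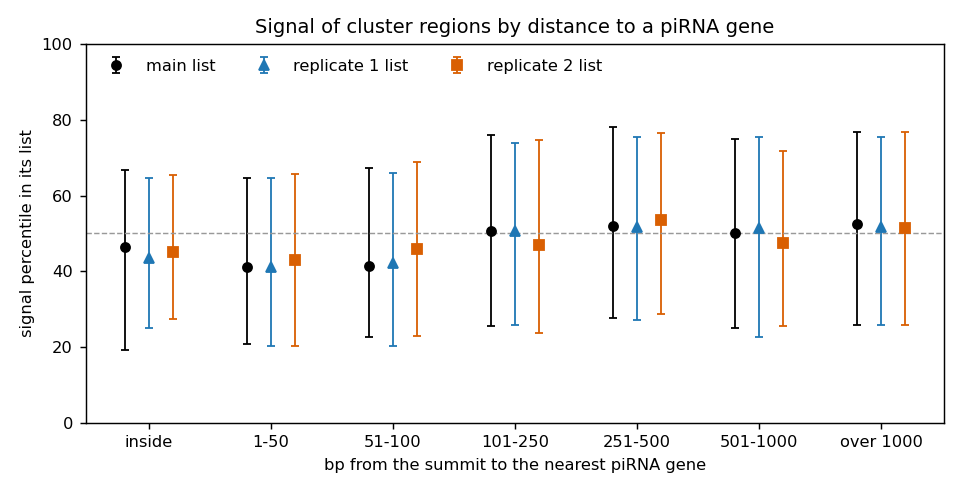
Signal percentile within its list (vertical axis) of cluster regions by the distance from the summit to the nearest piRNA gene in bp (horizontal axis), with the median as a point and bars from the lower to the upper quartile, for the main list and each replicate. Medians within 100 bp lay between 41.0 and 46.5 and the quartile bars of all classes overlapped.

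GC content moved with both results. Averaged over the 201 bases around each summit, GC content was 31.5% ± 5.68 (SD over 960 regions) at piRNA genes, 38.7% ± 7.37 (4351 regions) at other members and 38.1% ± 6.92 in the rest of chromosome IV. In the main list, the median percentiles for 25 to 30% GC were 36.5 at piRNA genes, 38.8 at other members and 36.2 in the rest of the chromosome. For 30 to 35% GC they were 42.7, 40.6 and 44.5, for 35 to 40% 51.6, 52.5 and 50.5, and for 40 to 45% 59.9, 58.7 and 58.0. Each class thus placed regions at piRNA genes within 2.35 points of other members, above them in one class and below them in the next. In replicate 1 the differences in these classes were at most 4.15 points and in replicate 2 at most 5.15, again of both signs. Without regard to GC content the differences were -9.63 points in replicate 1 and -6.06 in replicate 2. The largest class difference of replicate 2 thus came close to that size. The part of GC content in the lower rank was not tested. Below 25% GC, with few regions, the medians at piRNA genes and at other members were 26.3 and 24.6 in the main list, 27.4 and 19.8 (replicate 1) and 31.9 and 35.3 (replicate 2). The rest of chromosome IV had 26.2, 32.7 and 31.0 there, so in replicate 1 the 3 sets stood apart in this class.

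The density of regions was set out by GC content as well, and the part of GC content in it was not tested. In 200-bp tiles of 25 to 30% GC there were 413 summits per Mb where the whole tile lay within 100 bp of a piRNA gene, 534 elsewhere in the clusters and 796 in the rest of chromosome IV. In tiles of 30 to 35% GC the values were 573, 932 and 1084. Replicate 1 had 302, 399 and 628 in the former and 534, 752 and 883 in the latter, and replicate 2 had 388, 461 and 606, then 573, 695 and 822. In all of these the order was the same, lowest at piRNA genes and highest outside the clusters. At 35 to 40% GC, where only 138 tiles lay at piRNA genes, the main list gave 1014, 1261 and 1413, but replicate 2 gave 1123, 985 and 1028. At 40 to 45% GC, clusters away from piRNA genes had 1545 against 1740 in the rest of chromosome IV. Replicate 1 had 1345 against 1494 there, but replicate 2 had 1252 against 1260. At 45 to 50% GC the main list gave 1738 against 1998, replicate 1 1566 against 1776 and replicate 2 1433 against 1449. Above 35% GC replicate 2 thus showed little difference between these 2 sets up to 50% GC.

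**Figure D4:**
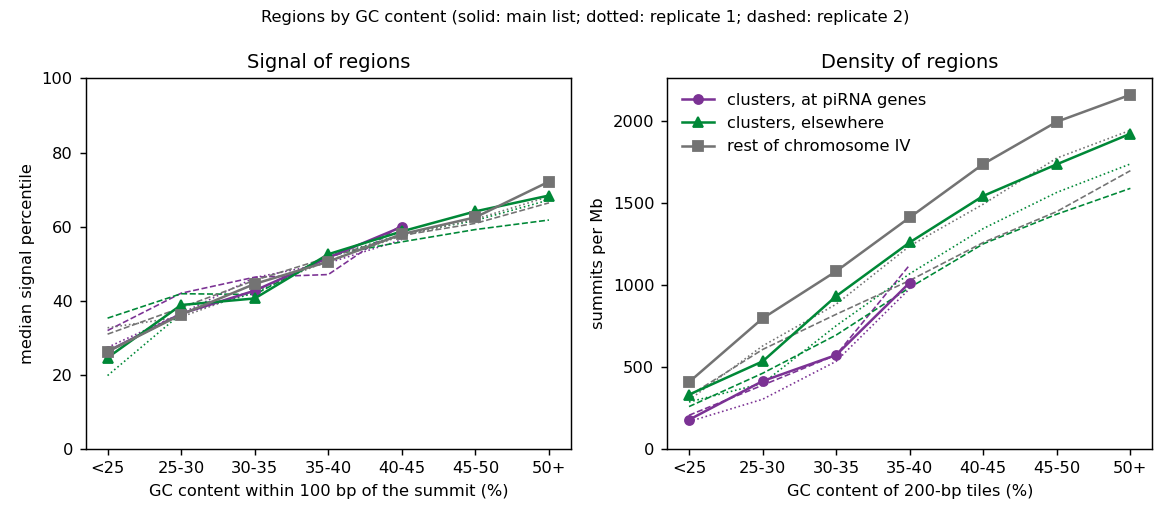
Median signal percentile of regions by GC content within 100 bp of the summit (left panel) and density of summits by GC content of 200-bp tiles (right panel), for clusters at piRNA genes (purple circles), clusters elsewhere (green triangles) and the rest of chromosome IV (grey squares), with the replicates as dotted and dashed lines. Classes with under 20 regions or under 50 tiles are not drawn; in the main list the signal curves lie close together, with a wider spread of the replicates below 25% GC, while the density curves keep an order up to 35% GC.

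On the scale of 100-kb bins, those with more piRNA genes held fewer regions. Over the 62 bins, which share the 2 libraries and hold between 0 and 486 piRNA genes and 26 to 142 regions, the number of piRNA genes and the number of regions had a Pearson r of -0.70 and a Spearman rho of -0.67. Within the left cluster (25 bins) r was -0.41 and within the right (37 bins) -0.62. With the regions of replicate 1 these were -0.47 and -0.62, and with those of replicate 2 -0.20 and -0.56, so the left relation was weak in replicate 2. The left values include the bins of 0, 1 and 8 piRNA genes at the window's lower end, which held 134, 142 and 137 regions in the main list. How far the left relation rests on those bins was not tested. GC content of the bin and the number of regions had an r of 0.81, and GC content and piRNA genes -0.76. The number of protein-coding genes and the number of regions had an r of 0.55, with 0.14 within the left cluster and 0.63 within the right. Protein-coding and piRNA genes had an r of -0.64 over the 62 bins. The median percentile of a bin's regions had an r of -0.22 with its piRNA genes, with -0.097 within the left cluster and -0.40 within the right.

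**Figure D5:**
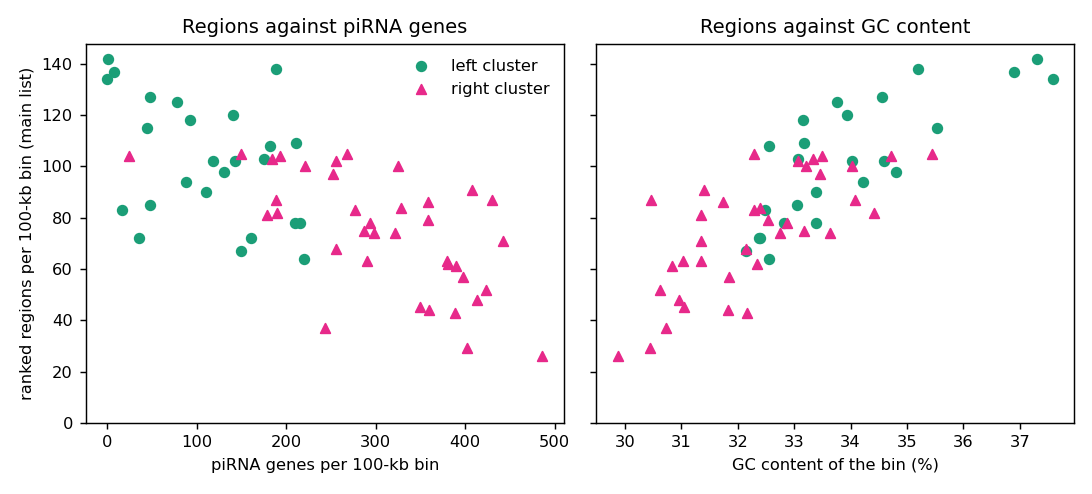
Ranked regions of the main list per 100-kb bin (vertical axis) against the number of piRNA genes (left panel) and the GC content in percent (right panel) of the same bin, for 25 bins of the left cluster (green circles) and 37 of the right (pink triangles). Bins with many piRNA genes held few regions and were low in GC; the emptiest bin had 26 regions and the fullest 142.

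The strongest regions at piRNA genes did not reach the passing score. In the right cluster the highest was IV:13600726-13601035, whose summit was 9 bp from 21ur-2046, printed above without an upstream word, and it had signals of 74.5 in the main list, 41.2 (replicate 1) and 27.3 (replicate 2). It was followed by regions at 21ur-1614 with 64.7, 21ur-2811 with 62.3, 21ur-10179 with 58.6 and 21ur-5005 with 55.7. All 5 were intergenic, and the percentile was higher in replicate 1 in each. At 21ur-10179 replicate 1 had 41.6 and replicate 2 only 15.6, which were the 99.3rd and the 55.9th percentile of their lists.

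In the left cluster the highest was IV:6284971-6285280, 90 bp from 21ur-14954, with signals of 59.1, 30.3 and 33.0, the 94.2nd and 98.0th percentiles of the replicates' lists. The region at 21ur-2585 had 56.8 in the main list, and the next ones lay in introns, at 21ur-9844 in R13H7.2 with 55.3, at 21ur-14006 in kcc-2, a potassium chloride cotransporter gene, with 53.2, and at 21ur-883 in unc-5, which encodes a netrin receptor, with 51.8. The last was the only 1 of these 10 with the ETS word CCGGAA within 100 bp of its summit. At 21ur-12668, printed above with its word, the signal was 45.3 in the main list, 9.92 (replicate 1) and 35.1 (replicate 2), the 27.9th and the 98.7th percentile of their lists.

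Words in the summit windows followed the genes. CTGTTTCA, on either strand within 100 bp of the summit, was in 8.45% of members (interval 7.72% to 9.23%), 1.25% of regions in the rest of chromosome IV and 1.44% of all ranked regions. Among members at a piRNA gene it was in 29.9%, and among the others in 3.72%. The core GTTTC, which lies within that word, was in 78.9% of members at a piRNA gene, 46.1% of the others and 44.7% of all ranked regions. The windows of none of the 10 passing members held CTGTTTCA, while 6 held the core.

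The ETS word CCGGAA, on either strand, was in 7.42% of members (interval 6.73% to 8.16%), 8.62% of regions in the rest of chromosome IV and 9.18% of all ranked regions. It was in 5.73% of members at a piRNA gene and 7.79% of the others. None of the 10 members passing in the main list held it. The member IV:15470855-15471164 near ntl-11, which passed in the conservative list but not in the main one, did hold it. Of the 10, 9 held the shorter GGAA, which lies within CCGGAA and was in 86.4% of all members and 87.9% of all ranked regions. A word in a window describes the sequence and is not a measured binding site.

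Cluster regions lay somewhat less at protein-coding genes than regions in the rest of the chromosome, chiefly in the right cluster. Summits within 500 bp of a start site made up 23.6% of members (interval 22.5% to 24.8%), 26.8% on the left and 20.7% on the right, against 25.7% in the rest of chromosome IV. Among all ranked regions the share was 23.8%, inside the members' interval. Intergenic summits were 39.6% on the right, 26.2% on the left and 24.8% in the rest. Summits in coding exons were 23.7% on the left and 15.9% on the right, and 23.4% in the rest. The left cluster was thus close to the rest of the chromosome in these classes, and the right cluster was not.

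Where the summit fell, the rank differed as well. Coding-exon members had a median percentile of 55.0, promoter members 53.0, intronic members 46.9 and intergenic members 46.5. In the rest of chromosome IV the same classes had 55.2, 51.4, 49.1 and 47.5. Of the intergenic members 25.4% were at a piRNA gene, as were 22.8% of intronic, 11.9% of promoter and 8.92% of coding-exon members. Passing members were 5 in promoters, 2 in coding exons and 3 intergenic. Of the 250 passing regions in the whole main list, 88 were in promoters, 53 in coding exons, 46 in introns and 61 intergenic. In the rest of chromosome IV these counts were 7, 9, 2 and 5. So few passing members do not set the clusters apart by class.

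The replicates held many but not all of the members. A region overlapping the member was found for 76.0% in replicate 1 and for 68.9% in replicate 2, and for 52.8% in both, while 418 members had none in either. Both replicates held 43.4% of members at a piRNA gene (interval 40.3% to 46.6%), 54.9% of the others (53.4% to 56.3%) and 56.8% of regions in the rest of chromosome IV. Recovery rose with signal, from 32.9% in both replicates for members below the 25th percentile of the list to 94.9% of the 59 members above the 99th percentile. The main list was made from the same 2 replicates, so such a rise is in part built in, and overlap by chance was not estimated. Of these 59, 2 were at a piRNA gene and 9 passed. For the 2804 members found in both, the replicates' percentiles had a Spearman rho of 0.23, which describes points that share the list they were picked from.

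Genes that make and use piRNAs, together with other germline genes, were looked up in the same lists, by the ranked region of highest signal within 1000 bp of a start site. Of 46 listed genes 45 were found in the annotation and 44 had such a region. For none of these 44 genes did the region pass, beside 0.794% of all protein-coding genes that have one. At this number a count of 0 does not set the listed genes apart. Among genes of piRNA transcription, snpc-4, a subunit of the small nuclear RNA activating complex, had the highest with a signal of 63.5 in the main list, 23.0 (replicate 1) and 38.2 (replicate 2). The region of prde-1, which is needed for piRNA precursor transcription, had 25.03 in the main list and 8.88 in replicate 1, with none found in replicate 2. The median percentile of the 7 genes of this role was 68.9.

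In precursor processing, tofu-1 had 70.6, 42.5 and 24.5 in the main list, replicate 1 and replicate 2, and the role's median was 66.1 over 9 genes. The Piwi gene prg-1 had 31.7, 17.4 and 17.4, at the 61.6th and the 64.8th percentile of the replicates' lists, and its role, which includes nuclear silencing, had a median of 76.7 over 5 genes. Secondary small RNA production, with the mutator genes, had a median of 89.7 over 9 genes, and the 14 germline genes with a region had 89.6. The median over all 44 was 79.5, beside 80.1 for the best region of the 18633 protein-coding genes that have one. Of the listed genes only pgl-1, a P granule gene, and him-3, a meiotic chromosome axis gene, lay in a cluster window, and the region they share had 44.8 in the main list and 21.7 in replicate 1.

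The edges of the windows are round positions, and the lower end of the left window takes in sequence with few piRNA genes. At the lower edge of the left cluster the nearest summits were 1151 bp inside with a signal of 13.8 and 13 bp outside with 16.3, both near gbb-2. At the lower edge of the right cluster they were 290 bp inside with 28.8 and 2 bp outside with 22.7, both near tbc-9. At the upper edge on the left the signals were 42.6 inside (near C25A8.5) and 66.1 outside (near cht-3), the latter at the 99.2nd percentile. On the right they were 15.6 inside (near flp-17) and 8.996 outside (near cnnm-1).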

How the data were processed

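Whole L1 larvae of 1 strain gave 2 biological replicates of ChIP-seq against a GFP-tagged ETS-5, per the labels, with build ce11. For aligner and caller the sources used here give no name. The reads and the input control were not analysed here, so depth is unknown. The authors deposited ranked and thresholded region lists for both replicates jointly (a main and a conservative pair) and for each replicate. The deposited signal is the caller's value per region, with no stated scale. It is printed for named regions and medians, and compared between lists as a percentile within each list. The deposited score is a whole number that rises with the −log2 of the global IDR up to 1000. The deposited −log10 of the global IDR was used to check this, to within 1 unit.

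Genes were those of Ensembl release 115 (1-based coordinates) and sequences read from the RefSeq genome WBcel235, whose chromosome lengths fit the lists. A region was at a piRNA gene with its summit within 100 bp of the gene body, and in a promoter within 500 bp of a protein-coding start site. Replicate values were those of the overlapping region of highest signal. Sequence words were searched on both strands within 100 bp of the summit. Named regions were all passing members, the 5 strongest at a piRNA gene in each cluster, the 5 strongest members of each replicate list, and the best region of each listed piRNA pathway gene; those absent from the thresholded list, passing only elsewhere or shown for their word were added after their values were seen. The members, gene lists and thresholds were chosen with earlier results of these data known. Shares have exact (Clopper-Pearson) 95% binomial intervals, for counting error only, except that the count of 0 at piRNA genes has a limit of 3 counts. No test over samples was possible with 1 group of 2 replicates, so comparisons are descriptions. Alternatives changed the list, windows, distances, words, overlaps and replicates. Scripts used Python with numpy 2.4.6, pandas 2.3.3, scipy 1.17.1 and matplotlib 3.10.9, and were tested on simulated regions.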

Additional observations from a re-analysis of the deposited data

How the results depend on the processing

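No paired analysis was possible because the data hold 1 group. Of the alternatives, 42 values stayed within the interval or replicate spread of the reported one and 37 moved. The cause was not tested, except that wider distances, windows or words take in more by construction.

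The cluster share passing the threshold, 1.19 times that of the rest of chromosome IV, was 2.21 times in the conservative list and 0.460 times for the right window alone. In single replicates' lists (an alternative added after seeing the data) it was 4.06 times (replicate 1) and 7.18 times (replicate 2). These rest on 3 cluster regions each, beside only 2 passing regions (replicate 1) and 1 (replicate 2) in the rest of chromosome IV. The ratio fell below 1 against all other chromosomes (0.921), with trimmed windows (0.899) and with absent high-scoring regions counted (0.966), so no direction held. The median percentile was 48.3 with 1 region for each stack, where the rest of chromosome IV had 50.7. It was 49.3 with windows cut by 0.25 Mb at both ends or the right alone, and 48.6 to 49.4 when a replicate was left out.

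The share at a piRNA gene was 10.8% within 50 bp, 47.2% within 500 bp, 20.8% in cut windows, 12.5% on the left, 23.3% on the right and 18.5% to 21.6% without a replicate. The percentile difference at piRNA genes was negative in all 10 values, at -4.58 points within 500 bp, -14.5 on the left and -9.63 to -6.06 without a replicate. Promoters took 11.2% at 200 bp, 41.0% at 1000 bp, 26.8% on the left and 20.7% on the right. GC content was 36.9% over the whole region.

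The piRNA word was in 4.07% within 50 bp, 13.4% of whole regions, 52.0% as its core, 9.49% in cut windows, 6.68% on the left, 10.1% on the right and 8.70% to 9.86% without a replicate. The ETS word was in 3.88% within 50 bp, 10.9% of whole regions and 86.4% as its core. Members found in both replicates were 31.6% by summits within 100 bp, 39.5% by an overlap of 50%, 51.2% with 1 region for each stack and 51.4% in cut windows. Unknown depth limits all counts of regions.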
